A study of Bos taurus with 30 samples.

Results

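The effect of plane of nutrition on the miRNAs of the arcuate nucleus of the hypothalamus (ARC) was compared in 21 of 30 small RNA libraries, those with the lowest levels of miRNAs that are abundant in the pituitary gland. Each library was scored by the mean of log2(value + 0.25) over 7 such miRNAs, miR-200a, miR-200c, miR-141, miR-429, miR-182, miR-183 and miR-375, and the 9 libraries with the highest score were dropped. The 21 kept libraries came from 10 calves on the high plane of nutrition (HI) and 11 on the moderate plane (MOD), and the dropped ones from 5 HI and 4 MOD calves. All calves were Holstein-Friesian bulls, with 1 library each, and were fed their diet from 2 to 12 weeks of age. HI calves were offered 1.5 kg of milk replacer in 10 litres daily with concentrates ad libitum, and MOD calves 0.5 kg of milk replacer in 4 litres with 0.5 kg of concentrates. No calf went without a diet treatment, so each difference is of HI relative to MOD. The question was which miRNAs of the ARC differ with diet once the libraries with the highest pituitary marker levels are left out.

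The ARC lies at the base of the hypothalamus, beside the ventricle and directly above the stalk of the pituitary gland. Its neurons sense hormones and nutrients that report energy status, and they relay this to food intake and to the release of gonadotropin-releasing hormone (GnRH), which drives puberty. A miRNA is a short RNA that guides the silencing complex to matching mRNAs and lowers their stability and translation. Many miRNAs are abundant in few cell types. The miR-200 family, the miR-182 and miR-183 cluster and miR-375 mark epithelial and endocrine cells, miR-124 and miR-9 mark neurons, miR-219 and miR-338 myelinating oligodendrocytes, miR-143 and miR-145 the smooth muscle of vessels, and miR-34b, miR-34c and miR-449 cells with motile cilia such as those that line the ventricle. The samples were dissected tissue, in which fewer cells of a type and less RNA per cell cannot be told apart.

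The libraries were selected on the marker score, so the levels of its 7 miRNAs are given as a description with no test of their own. Of the 7, 6 passed the filter on low values and are among the 473 miRNAs of the counts below. Scores of the kept libraries ranged from 2.98 to 5.02 in HI calves and from 2.69 to 5.60 in MOD calves, and those of the dropped libraries from 7.83 to 11.92. The kept library nearest the limit was that of MOD calf A12937, with a score of 5.60, and the dropped library nearest to it that of MOD calf A21978, with a score of 7.83. No library fell between these scores. Mean scores of the kept libraries were 3.93 ± 0.65 (SD, n = 10) for HI and 3.77 ± 0.89 (SD, n = 11) for MOD. The deposited values are counts scaled to library size (CPM) with edgeR's TMM factors, which correct for shifts in the share of reads that the most abundant miRNAs take up. On this scale miR-182 had a median of 88.0 in the kept libraries, with a range of 33.8 to 605, against a range of 1969 to 39239 in the dropped ones. miR-375, a miRNA of endocrine cells, had a median of 606 in the kept libraries and a range of 75.7 to 1268, against 3192 to 47575 in the dropped ones. miR-200a had a median of 2.20 in the kept libraries and reached 10.7, where the dropped libraries held 62.9 to 1241. The score miRNAs were thus lower in the kept libraries, as the selection fixes, but not absent, with each of the 7 above 0 in all 21. miR-7, a miRNA of endocrine cells that the score did not use, had values of 1969 to 6379 in HI and 2132 to 5925 in MOD. Its range in the dropped libraries, 3810 to 9594, overlapped with these. The log2 fold change of miR-7 between the diets was -0.11 (95% interval -0.53 to 0.32). The pituitary and epithelial miRNAs miR-96 and miR-200b did not pass the filter on low values.

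**Figure D1:**
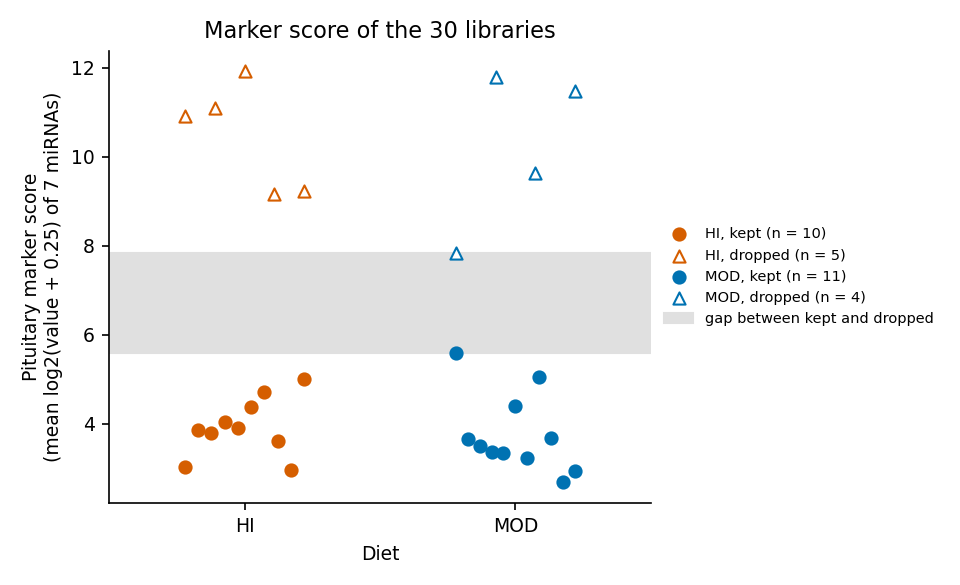
Pituitary marker score, on a log2 scale, of each of the 30 libraries by diet, with filled circles for the 21 kept libraries, open triangles for the 9 dropped ones and a grey band over the scores that no library had. The kept libraries reach 5.02 in HI and 5.60 in MOD, and the dropped ones begin at 7.83.

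Reads counted on miRNAs ranged from 6291369 to 18767213 in the kept libraries. Of these, 6 libraries (2 HI and 4 MOD) had at least 17193357 reads, and the other 15 (8 HI and 7 MOD) had at most 8988043. The diets did not differ detectably in reads by a two-sided permutation test (p = 0.641). In terms of counting error alone, 3 reads were worth 0.140 to 0.413 on the CPM scale. Animal codes were not balanced over the diets, because of the kept calves with one of the 9 lowest codes 4 were HI and 1 was MOD. The labels do not say what the codes stand for, and this class was taken from an earlier analysis of these values. Nothing in the labels says how calves were housed or processed in groups, so the p-values measure the spread between calves as sampled.

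No miRNA differed between HI and MOD in the 21 libraries at the thresholds used, which were 0.1 for the adjusted p and 1.5 for the fold change. This was 0 of 473 miRNAs tested (0%) by limma. The miRNA with the strongest evidence was miR-145, lower in HI calves with an adjusted p of 0.266 by limma, and the next smallest adjusted p by limma was 0.686. At an unadjusted p under 0.05, limma gave 25 of the 473 (5.29%), 12 of them higher in HI (2.54%) and 13 lower (2.75%), where 0.05 of 473 tests is 23.65. The split by direction depended on the scaling, with 11 higher and 7 lower on library size alone and 32 higher and 7 lower with upper quartile factors. DESeq2 gave 25 and edgeR's quasi-likelihood test 26 at that unadjusted limit, each with 0 past both thresholds. A fold change above 1.5 was estimated for 5 miRNAs, of which only miR-2419-3p was higher in HI, while miR-193a-3p, miR-12034, miR-34b and miR-34c were lower. For 81.2% of the miRNAs tested the 95% interval of the fold change lay wholly within 1.5-fold in either direction, so that at these miRNAs a difference above the study's fold threshold lay outside the interval.

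Leaving out the 9 libraries narrowed the spread between calves of a diet. The median residual SD on the log2 scale was 0.28 in the 21 libraries and 0.37 in all 30, and it was smaller in the 21 for 367 of the 472 miRNAs tested in both. For the 7 score miRNAs a smaller spread follows from the choice of libraries. The vascular list described below went from a median residual SD of 1.36 to 0.45, and the list of 16 neuronal miRNAs from 0.44 to 0.28. miR-124a, the most neuron-restricted miRNA, went from 0.80 to 0.24. The list of choroid plexus and ependymal miRNAs did not narrow, with a median residual SD of 1.38 in the 30 and 1.60 in the 21. Because fewer calves were left, the standard error of the diet difference changed little. Its median was 0.12 in the 21 libraries and 0.13 in the 30, and it was smaller in the 21 for 228 of 472 miRNAs.

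**Figure D2:**
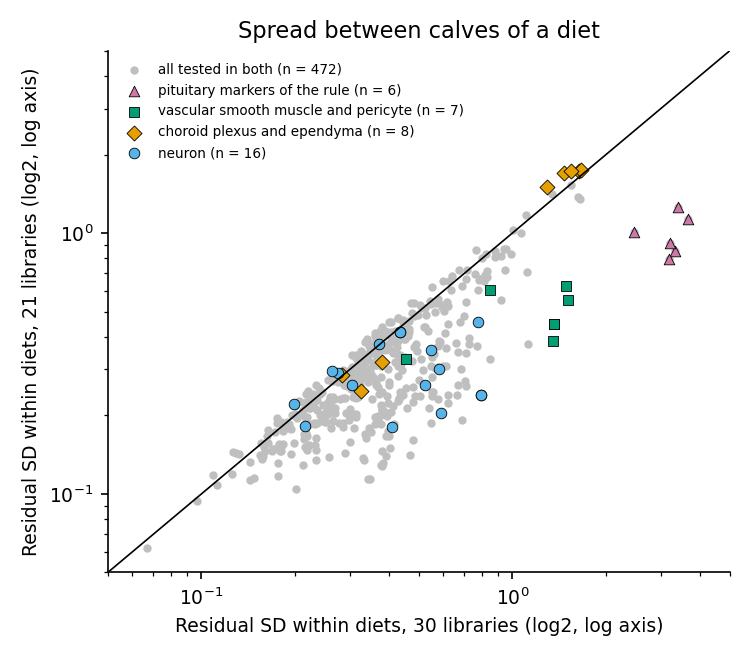
Residual SD of log2(value + 0.25) within diets, in the 30 libraries (horizontal, log axis) and in the 21 kept ones (vertical, log axis), with 1 point for each of 472 miRNAs, 4 lists in colour and a line where both are equal. Of the 472 points, 367 lie below the line, vascular miRNAs far below it, and choroid plexus and ependymal ones with the widest spread lie on or above it.

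miR-145 represses the smooth muscle cell's switch to a dividing state and is made from the same transcript as miR-143. In the RefSeq annotation of ARS-UCD2.0 both lie within the span of the noncoding gene LOC132345768, with MIR145 between MIR143 and CSNK1A1. Its values ran from 356 through a median of 491 to 670.3 in HI calves, and from 386 through a median of 755 to 901 in MOD calves. All 10 HI calves lay below the MOD median and 8 of the 11 MOD calves above every HI calf, while the other 3 overlapped with HI, MOD calf A38765 having the lowest MOD value. HI calves averaged 487.7 ± 94.1 (SD, n = 10) and MOD calves 722 ± 157 (SD, n = 11). The log2 fold change was -0.55 (SE 0.14, 95% interval -0.84 to -0.27) with a limma p of 0.000562 and an adjusted p of 0.266. A two-sided permutation test of the same difference gave p = 0.00192. Without A38765 the log2 fold change was -0.64 with a limma adjusted p of 0.00626, and without HI calf A92928, which had the highest HI value, it was -0.61 with 0.0990. Either omission took miR-145 past both thresholds, but leaving out the lowest MOD or the highest HI value widens the difference by construction. Of the 21 omissions of 1 calf only these 2 did so, and over all of them the limma adjusted p reached 0.635. DESeq2 gave an adjusted p of 0.0314 with all 21 libraries, at a fold change below 1.5.

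The lower level of miR-145 in HI was seen within each class of library. It was -0.51 (log2) in the 15 shallower libraries (exact permutation p = 0.0224) and -0.72 in the 6 deeper ones (exact permutation p = 0.133, the smallest that 2 against 4 calves allow). Among the 16 kept calves outside the 9 lowest codes it was -0.53 (exact permutation p = 0.0200). In all 30 libraries the log2 fold change was -0.46 (SE 0.16, limma p = 0.00797, adjusted p = 0.878), and in the 9 dropped libraries, which share no calf with the 21, it was -0.35. Here and below, values of the 9 dropped libraries are differences in means of 5 HI and 4 MOD calves. No error was computed for them.

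The list of miRNAs of vascular smooth muscle and pericytes had 7 tested members, all with a negative log2 fold change, beside 255 of all 473 miRNAs tested. The 7 are not separate observations, since some share a transcript or have nearly the same values. Of these, miR-145 and miR-199a-5p had an unadjusted limma p under 0.05, 2 of 7, beside 5.29% of all miRNAs tested. The median of the list was -0.43, beside -0.02 over all 473 miRNAs, and in the 30 libraries it was -0.12. All 7 were lower under each other scaling of the 21 libraries, but 6 of 7 were when 6 or 12 libraries were dropped and 4 of 7 when none was. With none dropped and the marker score as a covariate 7 of 7 were lower, with a median of -0.38. miR-143, the partner of miR-145 and the second most abundant miRNA in these libraries, ranged from 34310 to 100971 in HI (median 66741) and from 44676 to 184692 in MOD (median 86998). Here 5 of 10 HI calves were above the MOD median, so the diets overlapped more than at miR-145, and the log2 fold change was -0.47 (SE 0.25, limma p = 0.0695). For miR-143 it was -0.79 with a term for the class of the 9 lowest codes (limma p = 0.000434, adjusted p = 0.205), and -0.76 among the 16 calves outside that class (exact permutation p = 0.0120). The difference in miR-143 was smaller with 12 libraries dropped, at -0.26, in all 30 libraries, at -0.27 (limma p = 0.364), and in the 9 dropped ones, at -0.045. miR-199a-5p, a miRNA of pericytes and fibroblasts, had values of 9.06 to 18.9 in HI (median 15.2) and of 8.13 to 36.3 in MOD (median 20.6), with a log2 fold change of -0.49 (SE 0.23, limma p = 0.0445). A two-sided permutation test of miR-199a-5p gave p = 0.0606, and its log2 fold change was -0.15 in all 30 libraries (limma p = 0.780) and 0.0088 in the 9 dropped ones. Its neighbour miR-214 had -0.43 (limma p = 0.115), and miR-199a-3p and miR-199c, whose values were nearly the same in every library, had -0.27 each. Summed over the list, values ranged from 34895 to 101771 in HI and from 45236 to 186009 in MOD, with medians of 67496 and 88016. The endothelial arms miR-126-3p and miR-126-5p, which mark the inner lining of vessels, had -0.04 (95% interval -0.35 to 0.27) and -0.06 (95% interval -0.32 to 0.20). Among the 16 calves outside the 9 lowest codes miR-126-3p differed by -0.15 (exact permutation p = 0.462) and miR-126-5p by -0.25 (exact permutation p = 0.04995). The part of vessel content in the miR-145 difference was not tested.

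miR-2419-3p, a cattle miRNA and the one that the study took forward, was higher in HI but did not pass the adjusted threshold. MIR2419 lies between NOD1 and ZNRF2 in the RefSeq annotation and overlaps no gene there. Its values were low, from 0.861 through a median of 3.18 to 5.11 in HI and from 0.559 through a median of 1.01 to 3.77 in MOD, or 8 to 60 reads in HI and 5 to 49 in MOD. Of the 10 HI calves 9 lay above the MOD median, 3 of them above every MOD calf, while 5 MOD calves lay below every HI calf. HI calves averaged 3.22 ± 1.434 (SD, n = 10) and MOD calves 1.58 ± 1.06 (SD, n = 11). On the log2(value + 0.25) scale, which understates the change of a miRNA at this level, the fold change was 0.98 (SE 0.33, 95% interval 0.30 to 1.66, limma p = 0.00688, adjusted p = 0.686). A two-sided permutation test gave p = 0.0135. The estimate in the 30 libraries was 1.09 (SE 0.28, limma p = 0.000537, adjusted p = 0.256) and that in the 9 dropped libraries 1.40. Thus miR-2419-3p did not pass the adjusted threshold by limma in the 30 libraries either, where the paper's edgeR test did call it. The part of the choice of test in this disagreement was not tested.

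Within the shallower libraries miR-2419-3p differed by 0.75 (log2, exact permutation p = 0.115) and within the deeper ones by 1.41 (exact permutation p = 0.133, again the smallest possible). Outside the 9 lowest codes the difference was 0.83 (exact permutation p = 0.0544). The direction was the same in each class, with wide error at these counts. The other arm of the hairpin, miR-2419-5p, was more abundant, with values from 113 through a median of 200.6 to 281 in HI and from 109.8 through 156 to 266 in MOD. The diets overlapped over most of this range, although 10 of 11 MOD calves lay below the HI median. Its log2 fold change was 0.40 (SE 0.17, limma p = 0.0329, adjusted p = 0.784), against 0.49 in the 30 libraries (limma p = 0.00257).

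**Figure D3:**
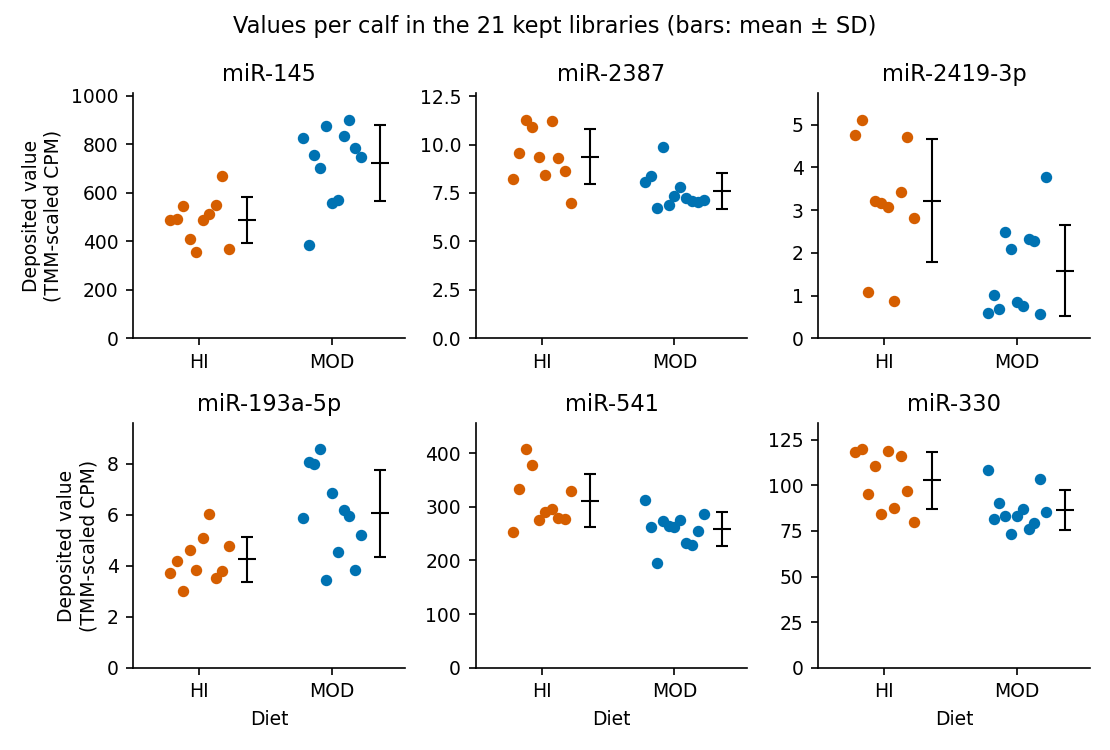
Deposited values (TMM-scaled CPM, from 0) of 6 miRNAs in each of the 10 HI and 11 MOD kept libraries, with black bars for the mean ± SD. The diets overlap at each miRNA, least at miR-145, where 8 MOD calves lie above every HI calf.

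Of the miRNAs with the next smallest p, 5 were higher in HI by small amounts. miR-2387, whose gene lies within the span of GTF2IRD1, ran from 6.97 to 11.3 in HI (median 9.32) and from 6.72 to 9.89 in MOD (median 7.23), with 9 of 10 HI calves above the MOD median. Its log2 fold change was 0.29 (SE 0.09, limma p = 0.00408, adjusted p = 0.686), made up of 0.38 in the shallower and -0.02 in the deeper libraries. miR-541, of the imprinted DLK1-DIO3 cluster that is expressed from the maternal chromosome and is rich in brain miRNAs, ran from 253 to 407 in HI (median 293) and from 195 to 312 in MOD (median 263). Its log2 fold change was 0.26 (SE 0.09, limma p = 0.00741). miR-330, whose gene overlaps EML2, had a median of 104 in HI and 83.3 in MOD and a log2 fold change of 0.24 (SE 0.09, limma p = 0.0120). The ruminant miRNAs miR-2284aa and miR-2284z had log2 fold changes of 0.25 each (limma p = 0.00900 and 0.0107). They belong to a family of near-identical copies whose reads the counting may have split, so their levels are uncertain.

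The other 3 of this group were lower in HI. miR-193a-5p ranged from 3.001 to 6.03 in HI (median 4.02) and from 3.44 to 8.57 in MOD (median 5.96), and 9 of 10 HI calves were below the MOD median. Its log2 fold change was -0.46 (SE 0.15, limma p = 0.00707, adjusted p = 0.686), whereas in the 9 dropped libraries it was 0.26. miR-331-3p was at a median of 474 in HI and 547 in MOD (log2 fold change -0.27, SE 0.10, limma p = 0.0133). miR-484, whose gene lies between MARF1 and NDE1, was at a median of 179 in HI and 203 in MOD, with all 11 MOD calves above the HI median (log2 fold change -0.17, SE 0.06, limma p = 0.0145). Both had the same sign and nearly the same size in the 30 libraries, -0.24 and -0.16. Outside the 9 lowest codes miR-331-3p differed by -0.11 (exact permutation p = 0.149).

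**Figure D4:**
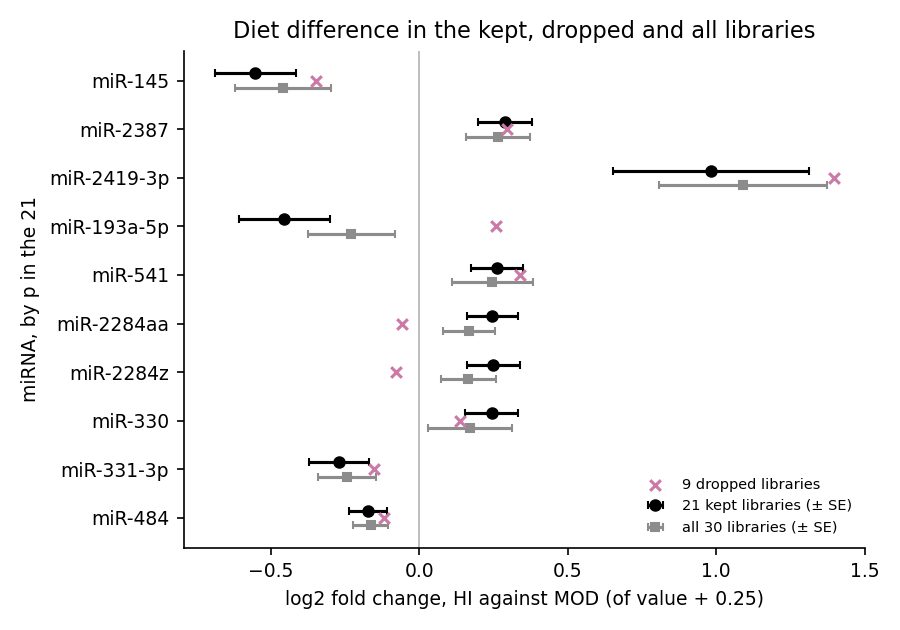
Log2 fold change of HI against MOD for the 10 miRNAs with the smallest p in the 21 libraries, in the 21 (black circles, ± SE), in all 30 (grey squares, ± SE) and in the 9 dropped libraries (crosses, no error computed). The 21 are part of the 30, and the crosses lie on the other side of 0 at miR-193a-5p, miR-2284aa and miR-2284z.

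Of the 25 miRNAs with an unadjusted limma p under 0.05 in the 21 libraries, 10 also had one in the 30 and 15 did not, and 11 had one in the 30 only. These fits share 21 libraries. The 15 were led by miR-193a-5p and miR-541, and held miR-432, miR-125a and miR-199a-5p. The residual SD of miR-199a-5p, for instance, was 0.55 in the 21 libraries and 1.51 in the 30, and its mean value was 18.8 in the kept and 145.8 in the dropped libraries.

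Among 23 tested miRNAs with a known part in insulin, lipid and glucose metabolism, 2 had an unadjusted limma p under 0.05, beside 5.29% of all miRNAs tested. Both had lower means in HI, and the median log2 fold change of the list was -0.02. miR-33b, which lies in an intron of SREBF1 and represses cholesterol export, ran from 2.31 to 7.75 in HI (median 4.59) and from 3.97 to 8.26 in MOD (median 5.85), with 4 HI calves below every MOD calf. Its log2 fold change was -0.47 (SE 0.21, limma p = 0.0318, adjusted p = 0.784). Outside the 9 lowest codes it was -0.08 (exact permutation p = 0.589). miR-29a, which dampens insulin signalling and collagen synthesis, was at a median of 2615 in HI and 2934 in MOD, with 5 HI calves below every MOD calf (log2 fold change -0.16, SE 0.08, limma p = 0.0425). Outside the 9 lowest codes miR-29a differed by -0.046 (exact permutation p = 0.463). For 19 of the 23 the 95% interval lay within 1.5-fold, beside 81.2% of all miRNAs, among them miR-103 with 0.03 and miR-107 with 0.02, a pair that lowers insulin sensitivity.

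Of 11 tested miRNAs with a known part in the onset of puberty or in GnRH expression, 0 had an unadjusted limma p under 0.05, beside 5.29% of all miRNAs tested. All 11 had a 95% interval within 1.5-fold, as 81.2% of all miRNAs did, and their median log2 fold change was -0.02. miR-30b-5p, of a family that represses the pubertal brake MKRN3, had the smallest p (log2 fold change -0.17, 95% interval -0.35 to 0.02, limma p = 0.0788), and outside the 9 lowest codes miR-30b-5p had -0.023. miR-30a-5p, the most abundant of them, had -0.02 with an interval of -0.20 to 0.17. The let-7 family and miR-98, which the pubertal regulator LIN28 blocks, likewise had 0 of 10 with such a p, all 10 intervals within 1.5-fold and log2 fold changes between -0.07 (let-7d) and 0.17 (miR-98). Of 56 tested miRNAs of the DLK1-DIO3 cluster 2 had an unadjusted limma p under 0.05, miR-541 and miR-432, both with higher means in HI, beside 5.29% of all miRNAs tested and a median of -0.02 in the cluster. miR-432, whose gene overlaps RTL1 and MEG8, ranged from 1188 to 1692 in HI and from 1004 to 1354 in MOD (log2 fold change 0.19, limma p = 0.0200). In the miR-2284 and miR-2285 family 3 of 54 tested members were higher at that limit (miR-2284aa, miR-2284z and miR-2285bm) and 1 was lower (miR-2285e), 4 of 54 beside the same 5.29%.

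The labelled tissue was checked against its markers, and all 16 listed neuronal miRNAs were tested in the kept libraries. Their summed values were 65613 to 104885 in HI and 70550.2 to 99598 in MOD, against 28093 to 74529.5 in the dropped libraries. The list holds miR-124a with miR-124b and miR-129 with miR-129-5p, pairs with identical values in every library. By limma 0 of the 16 had an unadjusted p under 0.05, beside 5.29% of all miRNAs tested, and 8 had a positive and 8 a negative log2 fold change. Of their 95% intervals 15 lay within 1.5-fold, beside 81.2% of all miRNAs tested, against 11 of 16 in the 30 libraries. miR-9-5p, the most abundant of them, ranged from 34503 to 73041 in HI and from 38975 to 64309.7 in MOD, with a log2 fold change of 0.14 (95% interval -0.12 to 0.40). The exception was miR-138, which limits dendritic spine growth, at -0.21 (95% interval -0.60 to 0.17).

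The lists of markers of other cell types that the dissection could hold had 1 to 8 tested members each, and outside the vascular list 0 of these had an unadjusted limma p under 0.05, beside 5.29% of all miRNAs tested. With so few members, 0 is near that share. The 4 tested oligodendrocyte miRNAs had a median log2 fold change of 0.35 and summed values of 2704 to 13879 in HI and 2179 to 7245 in MOD. The highest sum was that of HI calf A27823. In that calf miR-219-3p was 2545, against an HI median of 525, and across the diets its log2 fold change was 0.52 (SE 0.33, limma p = 0.126). Without that calf miR-219-3p had 0.32, and miR-338 had 0.10 in place of 0.29, whereas without MOD calf A97821, which had the highest MOD value of miR-219-3p, they had 0.68 (limma p = 0.0367, adjusted p = 0.626) and 0.39. Outside the 9 lowest codes miR-219-3p, miR-219-5p and miR-338 had 0.049, -0.041 and -0.081. The 7 leukocyte and microglial miRNAs had a median of 0.05, with miR-146b at 0.29 (limma p = 0.191) and miR-150 at -0.23 (limma p = 0.234). Outside the 9 lowest codes miR-146b had 0.054 and miR-150 had 0.0015, and with none of the 30 libraries dropped they had 0.44 and -0.44. The 3 erythroid ones had a median of 0.13, with miR-486 at -0.03 (95% interval -0.22 to 0.16). Summed levels overlapped between the diets in each of these lists, with erythroid sums of 23858 to 39732 in HI and 24063 to 40320.3 in MOD.

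Single calves differed widely at miR-34b and miR-34c, which are made together and are needed for motile cilia. They ranged from 5.64 to 251 and from 100.2 to 3947 in HI, and from 4.78 to 267 and from 54.1 to 4287 in MOD. Each diet thus held calves near both ends. These 2 miRNAs had the largest log2 fold changes among miRNAs with a mean of at least 10, -0.85 (SE 0.70, 95% interval -2.30 to 0.60, limma p = 0.238) and -0.79 (SE 0.71, 95% interval -2.25 to 0.68, limma p = 0.278), with intervals on both sides of 0. Without MOD calf A97821 the values of miR-34b and miR-34c were -1.28 and -1.26 (limma p = 0.0413 and 0.0344, adjusted p = 0.626 for both), and without HI calf A27823 they were -0.49 and -0.44. Outside the 9 lowest codes miR-34b had -0.39 and miR-34c -0.26. For 3 of the 8 listed ciliated and choroid plexus miRNAs (37.5%) the interval lay within 1.5-fold, beside 81.2% of all miRNAs. miR-215, a miRNA of gut and liver whose gene lies within IARS2, had -0.55 (SE 0.35, limma p = 0.124), and -0.16 outside the 9 lowest codes.

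miR-193a-3p was the remaining miRNA with a mean of at least 10 and a fold change above 1.5. It ranged from 10.6 through a median of 47.1 to 68.6 in HI and from 34.9 through 66.2 to 88.3 in MOD, with 4 HI calves below every MOD calf. Its log2 fold change was -0.75 (SE 0.29, limma p = 0.0185, adjusted p = 0.728). The 4 HI calves with codes among the 9 lowest averaged 18.8 and the 6 others 59.1, and outside the 9 lowest codes the difference between diets was -0.14 (exact permutation p = 0.334). In the shallower libraries it was -0.86 and in the deeper ones -0.25. The part of the animal code in this difference was not tested beyond these values.

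Of the 5 most abundant miRNAs, miR-143 is described above. miR-26a, the highest, ranged from 97546 to 221767 in HI and from 90061 to 227860 in MOD, with a log2 fold change of 0.11 (95% interval -0.20 to 0.43). After miR-143, the order was miR-181a with 0.25 (95% interval -0.16 to 0.65), miR-9-5p and miR-127 with 0.04 (95% interval -0.15 to 0.23). Outside the 9 lowest codes miR-26a, miR-181a, miR-9-5p and miR-127 had -0.11, -0.034, -0.058 and -0.079. Without HI calf A27823 miR-181a had 0.10.

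Whether the diet difference depended on the marker class was tested over all 30 libraries with an interaction term for kept against dropped. No miRNA passed an adjusted p under 0.1, 0 of 476 (0%) by limma, with 13 at an unadjusted p under 0.05 and a smallest adjusted p of 0.510. edgeR's quasi-likelihood test gave 0 as well. The smallest p were at both arms of miR-142, a miRNA of leukocytes and microglia. The log2 fold change of miR-142-3p was 0.07 in the 21 libraries and -0.54 in the 9 dropped ones (limma interaction p = 0.00125), and that of miR-142-5p was 0.03 and -0.55 (limma interaction p = 0.00214). In the 21 libraries the levels of miR-142-3p overlapped almost fully, from 71.2 to 105 in HI and from 56.5 to 98.6 in MOD. miR-6528, miR-2285e and miR-146a followed, with log2 fold changes of -0.16, -0.57 and 0.13 in the 21 libraries and 0.77, 0.78 and -0.39 in the 9.

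Principal components of the 21 libraries did not separate the diets. Of the variance, 25.7% lay on the first component and 14.8% on the second, against 57.6% and 9.07% in all 30. HI calves had a mean score of -1.22 ± 5.52 (SD, n = 10) on the first and MOD calves 1.11 ± 3.76 (SD, n = 11), a difference with p = 0.270 by a two-sided permutation test. On the second the means were 0.34 ± 2.42 and -0.31 ± 4.49, with a permutation p of 0.686. The first component ran from libraries with high miR-34c, miR-34b and miR-190b to those with high miR-219-3p, miR-219-5p and miR-338. miR-375, a miRNA of the pituitary score, had the loading ranked 4 by size on it, with the sign of miR-34c. HI calf A27823 lay farthest toward the end of high miR-219-3p, at -11.8. The second component was led by miR-449c, miR-449a and miR-449b, which were highest in MOD calf A61973 and lowest in HI calf A47858, with miR-10182-5p and miR-10182-3p in the opposite direction. The score miRNAs miR-200a, miR-182, miR-183, miR-141 and miR-200c took ranks 6 to 10 on it. miR-449a ran from 2.33 to 237 over the 21 libraries, and its log2 fold change between the diets was -0.01.

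**Figure D5:**
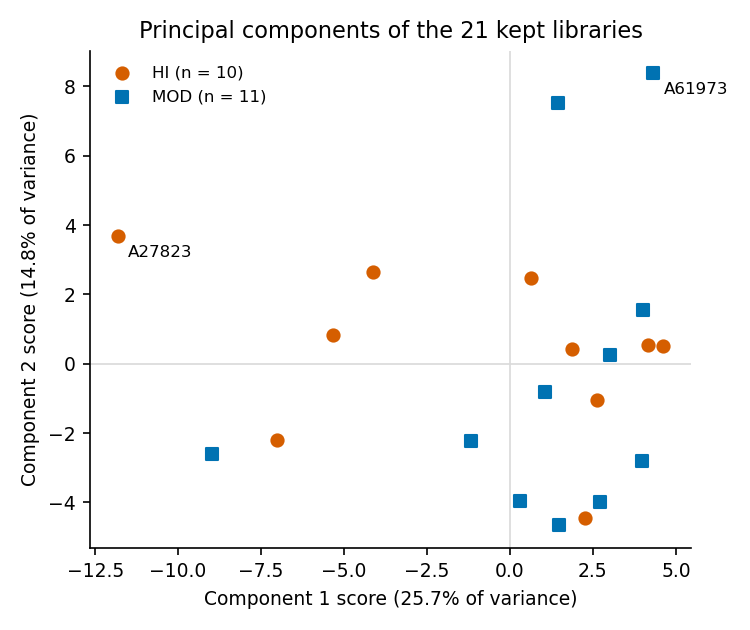
Scores of the 21 kept libraries on the first (horizontal, 25.7% of variance) and second (vertical, 14.8%) principal components of log2(value + 0.25), with circles for 10 HI and squares for 11 MOD calves. The diets overlap on both axes, and HI calf A27823 lies lowest on the first component at -11.8.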

How the data were processed

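RNA of dissected ARC tissue was sequenced as small RNA libraries. Adapters were trimmed by the authors with Cutadapt, and trimmed reads of 15 to 28 bases were retained. After filtering of rRNA and other short RNA classes, miRDeep2 with Bowtie assigned reads to annotated bovine miRNAs on ARS-UCD1.2. Submitters' processing notes list FastQC 0.11.8, cutadapt 2.6, R 3.4 and edgeR 3.5. The signal values the authors deposited are decimals with the form of TMM-scaled CPM, 1 per calf for each mature miRNA. The labels name a stranded RNA kit, where the study's methods name a small RNA kit.

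Diets were taken from the labels. The marker score, the miRNA lists and the class of the 9 lowest animal codes were chosen with earlier results of these data known. Read numbers were recovered from the smallest step between values of a library, taken as 1 read. In the 21 libraries, whole numbers within 0.1 of a read resulted for 94.5% to 97.9% of the values below 200 reads. Precision is limited by these depths. The 95% intervals of fold changes are from limma and rest on the spread between calves. Count tests on the recovered reads (edgeR's quasi-likelihood test and DESeq2) were alternatives and made 0 calls. MiRNAs were kept by edgeR's filterByExpr on the reads of the 21 libraries, which left 473 of 863 with a read. Of the 7 score miRNAs, miR-429 did not pass. The main test was limma (lmFit, eBayes with trend) on log2(value + 0.25), with Benjamini-Hochberg adjustment. At the median depth the pseudocount stands for 2.08 reads. A call required both an adjusted p below 0.1 and more than a 1.5-fold change. Single values were compared with two-sided permutation tests, of 100000 resamples or exact within classes. The code was tested on simulated counts.

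MiRNAs named are both arms of miR-2419, the 10 with the smallest p apart from the score miRNAs, the 5 largest fold changes at a mean of at least 10, the 5 most abundant, the 5 with the smallest interaction p, and for each list the 2 with the smallest p and the most abundant. Others named beside these, such as miR-103, miR-107, miR-138, miR-214, miR-12034, miR-449, miR-10182 and those with an unadjusted p under 0.05, were chosen after their values were seen. Lists of liver and striated muscle miRNAs, with 4 tested members each, had 0 members with an unadjusted limma p under 0.05, beside 5.29% of all miRNAs tested, with medians of -0.11 and -0.17 on the log2 scale. Alternatives covered the pseudocount, normalization, filter, test, covariates, number of libraries dropped and leaving out each calf. Gene neighbours come from RefSeq on ARS-UCD2.0, a later build than that of the files, so no coordinates are given. No sequences are printed, since none was among the tables used here. Analyses were run in R 4.3.3 (limma 3.58.1, DESeq2 1.42.0, edgeR 4.0.16) and in Python 3.11.15 (scipy 1.17.1).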

Additional observations from a re-analysis of the deposited data

Results flagged for a closer look

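Every named miRNA that was tested, apart from those of the score, was screened on the deposited scale for a value that stood apart. Among the 10 HI calves, 6 of the named miRNAs had a highest value that stood apart from the other 9 by Dixon's criterion at 95%, which chance meets in about 1 in 20 groups of normally spread values. In 5 of these it was the value of calf A27823. That calf had 176343 of miR-181a, where the next HI calf had 107048 and the HI median was 59455. Its miR-219-3p was 2545 and its miR-219-5p 912, where the next HI calves had 1245.5 and 416, and its miR-338 was 10419.5 where the next had 4844. All of the latter 3 are oligodendrocyte miRNAs. Its miR-133b, a miRNA of striated muscle at a low level here, was 15.3, with the next at 9.90. Without this calf 19 miRNAs had an unadjusted limma p under 0.05, compared with 25. The sixth value was miR-127 of HI calf A13745, an imprinted brain miRNA, at 72373 against 50386 in the next HI calf and a median of 43482. The screen was set for groups of at most 10, so the 11 MOD calves were not screened, and among them A97821 had 1443 of miR-219-3p where the next had 809. The part of cell content in these values was not tested.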

How the results depend on the processing

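Depth limits miRNAs at a few CPM such as miR-2419-3p, and 21 calves limit those with a wide spread such as miR-34c. Over the 25 alternatives other than leaving out a calf, 0 miRNAs were called, with smallest adjusted p of 0.0314 (DESeq2) to 0.979. Rules with no fold change threshold were applied to the main limma fit only. With no fold change threshold, DESeq2's adjusted p for miR-145 would pass. Leaving out each calf gave 0 to 1 calls, the 1 being miR-145 without HI calf A92928 or MOD calf A38765. MiRNAs with an unadjusted p under 0.05 numbered 39 with upper quartile factors, 15 with a term for the class of the 9 lowest animal codes and 43 with 12 libraries dropped, and 19 to 38 when a calf was left out (38 without MOD calf A12937). The cause was not tested. With no filter they numbered 38, but of 853 tested in place of 473. For miR-2419-3p the log2 fold change was 0.72 to 1.15 over its alternatives and 0.89 to 1.15 without any 1 calf, with adjusted p of at least 0.138 over the alternatives. It had no value with the filter on a mean of at least 10. At miR-145 it was -0.57 to -0.41 over its alternatives. The interaction and both principal components kept their side of the threshold in the alternatives run for them. No paired analysis was possible because every calf was on 1 diet only and the labels give HI and MOD calves no common number.

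Of 51 named miRNAs recomputed, 30 kept their direction in all settings. The others changed sign in at least 1 setting, as follows, among them miR-219-5p, miR-338, miR-181a, miR-150 and miR-129-3p, which were at 0.40, 0.29, 0.25, -0.23 and -0.19 with all 21 libraries by limma. With upper quartile factors, values were 0.011 for let-7d, 0.038 for miR-126-3p, 0.017 for miR-126-5p, 0.0087 for miR-204, 0.030 for miR-2284x, 0.059 for miR-30a-5p and 0.050 for miR-486. With the code class as a term they were -0.0075 for miR-9-5p, -0.038 for miR-127, -0.025 for let-7a-5p, 0.034 for miR-150, -0.067 for miR-192, 0.012 for miR-204 and 0.039 for miR-208b. With 6 libraries dropped miR-142-5p had -0.013, and with 12 dropped miR-30a-5p had 0.012 and miR-486 0.0022. With none dropped they were -0.0086 for miR-9-5p, -0.14 for miR-142-5p, 0.020 for miR-204, 0.0042 for miR-30a-5p, 0.030 for miR-486 and 0.022 for miR-7, and with the marker score as a covariate -0.14 for miR-142-5p, -0.0087 for miR-144, 0.029 for miR-204 and 0.040 for miR-486. In an alternative chosen after seeing the data, only the 16 calves outside the 9 lowest codes, they were -0.11 for miR-26a, -0.034 for miR-181a, -0.058 for miR-9-5p, -0.079 for miR-127, -0.055 for let-7a-5p, 0.0099 for let-7d, 0.047 for miR-129-3p, -0.062 for miR-144, 0.0015 for miR-150, -0.090 for miR-192, 0.13 for miR-204, 0.17 for miR-208b, -0.041 for miR-219-5p, -0.081 for miR-338 and 0.060 for miR-7. In another such alternative, the shallower libraries only, they were 0.080 for miR-126-3p, 0.025 for miR-126-5p, -0.033 for miR-142-5p and -0.040 for miR-144. Leaving out each calf gave -0.13 to 0.044 for miR-126-3p, -0.033 to 0.070 for miR-127, -0.011 to 0.055 for miR-142-5p, -0.049 to 0.019 for miR-30a-5p and -0.074 to 0.015 for miR-486.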
